A study of Homo sapiens with 15 samples.

Results

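The genes described are 58 genes of the G2 phase and of mitosis, taken by name from the 23368 genes of the table, and all 58 were found there. They were sorted by role into 10 groups: cyclins, CDK1 and their regulators (7 genes), mitotic kinases (4), the spindle checkpoint (5), the chromosomal passenger complex (4), centromere and kinetochore (7), mitotic kinesins (9), cytokinesis (4), mitotic chromosome structure (7), spindle assembly (7) and the anaphase promoting complex axis (4). The RNA-seq libraries, of polyadenylated RNA, came from 3 single-cell clones of metastatic breast cancer cells, in which doxycycline switches on a FLAG-tagged transgene. WT6 and WT10 carry wild type RBM47, an RNA-binding protein, and MUT3 carries the frameshift mutant RBM47-I281fs. Doses were 0 (untreated), 1, 2.5, 5 and 25 ng/ml, and every combination of clone and dose had 1 library, 15 in all. The sample labels name MDA231 as the line behind all 3 clones, whereas the methods derive WT10 and MUT3 from a brain metastatic derivative of that line and WT6 from a brain metastatic derivative of another, CN34. A group is therefore 1 clone, and clone and transgene cannot be told apart. The length of treatment is not given in the sources used here.

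In proliferating cells many genes of G2 and mitosis are transcribed together late in the cycle. The MuvB core binds their promoters with B-MYB and FOXM1 to activate them, and with p130, E2F4 and their partners, as the DREAM complex, to repress them. MuvB contacts a short promoter element called the CHR, usually TTTGAA, and NF-Y binds CCAAT boxes nearby. CDK1 with cyclin B then drives entry into mitosis, the spindle checkpoint holds it until chromosomes are attached, and the anaphase promoting complex with CDC20 ends it.

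Promoters from RefSeq (GRCh38.p14, 250 bases before to 50 bases from each start site) were matched for 50 of the 58 genes; FOXM1, TTK, RACGAP1, BIRC5, UBE2C, BUB3, TPX2 and AURKA had no match. Both strands were searched for TTTGAA, for its variant TTCGAA and for CCAAT. The first of these was present in 70% of the members' promoters, in 15.4% of all 27305 promoters of that length and in 9.42% of those of the genes tested. CCAAT was present in 70% of the members' promoters, 35.7% of all promoters and 55% of those of 40 G1/S and DNA replication genes. A CHR motif of either spelling together with CCAAT was found in 54% of the members' promoters, in 6.58% of all promoters and in 5% of the G1/S promoters. The windows below, from 100 bases before to 20 bases from the start site, are shown because they hold both motifs (the first 6) or neither (the last 3); capitals mark a CHR motif of either spelling or a CCAAT box, on either strand.
PLK1 (chr16:23678789-23678908, plus strand): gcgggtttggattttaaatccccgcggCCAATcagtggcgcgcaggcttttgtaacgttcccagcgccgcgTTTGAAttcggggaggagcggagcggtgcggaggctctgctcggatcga
CCNB2 (chr15:59105046-59105165, plus strand): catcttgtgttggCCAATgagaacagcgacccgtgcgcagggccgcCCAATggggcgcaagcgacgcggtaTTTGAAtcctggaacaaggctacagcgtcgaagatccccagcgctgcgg
MKI67 (chr10:128126404-128126523, minus strand): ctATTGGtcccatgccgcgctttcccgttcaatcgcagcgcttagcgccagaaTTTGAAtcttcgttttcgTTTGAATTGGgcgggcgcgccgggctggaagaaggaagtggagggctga
INCENP (chr11:62123911-62124030, plus strand): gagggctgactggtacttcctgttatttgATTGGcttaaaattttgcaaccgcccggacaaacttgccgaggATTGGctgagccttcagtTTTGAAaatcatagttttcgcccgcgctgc
KIF14 (chr1:200620732-200620851, minus strand): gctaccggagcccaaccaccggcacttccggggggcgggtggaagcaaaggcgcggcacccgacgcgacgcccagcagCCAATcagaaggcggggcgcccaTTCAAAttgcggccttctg
BUB1 (chr2:110678044-110678163, minus strand): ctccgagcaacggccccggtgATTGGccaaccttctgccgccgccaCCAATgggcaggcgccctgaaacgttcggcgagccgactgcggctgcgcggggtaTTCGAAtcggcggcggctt
CDC25B (chr20:3786851-3786970, plus strand): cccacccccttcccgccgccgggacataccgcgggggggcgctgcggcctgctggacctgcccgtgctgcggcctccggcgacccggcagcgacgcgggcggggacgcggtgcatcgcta
CENPE (chr4:103198324-103198443, minus strand): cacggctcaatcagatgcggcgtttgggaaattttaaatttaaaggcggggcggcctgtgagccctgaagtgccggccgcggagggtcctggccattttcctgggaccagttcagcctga
GAS2L3 (chr12:100593518-100593637, plus strand): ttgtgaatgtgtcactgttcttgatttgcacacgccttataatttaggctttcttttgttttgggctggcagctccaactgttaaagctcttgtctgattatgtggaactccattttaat
In PLK1 and CCNB2 the TTTGAA motif began 29 bases before the start site with CCAAT upstream of it. MKI67 had TTTGAA both 47 and 29 bases before the start. CDC25B, CENPE and GAS2L3 held none of these letters in the window. By promoter type, the median WT10 slope was -0.15 over the 27 genes with both motifs and -0.17 over the 6 with neither. In WT6 cells these medians were -0.30 and -0.32. Each gene was searched around a single start site, so a motif near another start site would be missed.

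Gene-level reads per library numbered between 14955172 and 44771871, and no member had fewer than 18 reads in any library. Values are normalized counts, that is, reads scaled by a size factor for each library. RBM47 itself rose from 258 to 10425 in WT6 cells, from 168 to 19877 in WT10 cells and from 73.8 to 22084 in MUT3 cells between 0 and 25 ng/ml. In WT6 cells the RBM47 count was 8094 at 2.5 ng/ml and 3966 at 5 ng/ml, against the order of the doses. The mesenchymal markers VIM and CD44 and the epithelial keratins KRT8 and KRT18 were all at 7100 or more in every library, whereas CDH1 (E-cadherin) stayed at or below 19.9 and EPCAM at or below 456. ESR1 and PGR stayed at or below 23.8, and CD3E of T cells was at 0. In WT6 cells the change with dose also moved with transcript length over all genes (values are given with the member lengths), so results are also given with trends on length and GC content removed.

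The G2/M and mitosis genes fell with dose in both clones with wild type RBM47, and none was called in the mutant clone. The change with dose was estimated as a slope, in log2 units of the normalized count per unit of log2(dose + 1), with limma over 12644 genes and a Benjamini-Hochberg adjusted p under 0.05 as the call. In WT6 cells 54 of the 58 members fell and 0 rose, beside 28.3% of all genes tested that fell and 29.2% that rose. In WT10 cells 41 fell and 0 rose, beside 9.83% and 10.2% of all genes. The median slope of the members was -0.28 in WT6, -0.13 in WT10 and 0.02 in MUT3, and over all genes it was 0.0053, -0.0027 and 0.0033. In MUT3 cells limma called 0 members, beside 0.0% of all genes. An unadjusted p under 0.05 was reached by 0 members, beside 295 of the 12644 genes. The threshold was strict in that clone: RBM47 itself, with a MUT3 slope of 2.005 (SE 0.304, adjusted p = 0.0517), did not pass it. A fit of each clone alone called 2 members there, both rising, and edgeR and DESeq2 on the recovered reads called 0. Without the WT6 libraries at 5 and 25 ng/ml, the WT6 fit called 5 members, 36 having an unadjusted p under 0.05. With the log2 RBM47 count in place of dose, limma called 0 members in any clone, 49 in WT6 and 12 in WT10 having an unadjusted p under 0.05. Shares of all genes are not given for these alternative fits. In bulk libraries, fewer cells in G2 or mitosis and less of these RNAs per cell cannot be told apart.

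The slopes were then compared between clones directly. WT10 and MUT3, which the methods place on the same parental line, differed in slope at 21 members, all lower in WT10, beside 2.97% of all genes; 0 were higher, beside 2.66%. The WT6 and WT10 slopes averaged were lower than the MUT3 slope at 52 members, beside 14.6% of all genes, and higher at 0, beside 10.1%. The median difference was -0.23. CDK1, BUB3, MAD2L1, UBE2C, PTTG1 and HMMR did not pass this test. With length and GC trends removed, CDK1, UBE2C and PTTG1 passed it (adjusted p = 0.00033, 0.00058 and 0.00032). BUB3, MAD2L1 and HMMR still did not. Removing the trends also raised the share of all genes called lower in WT10 than in MUT3, from 2.97% to 10.9%. With trends removed, the share is not given for the wild type average or for the WT10 slopes. The fall was steeper in WT6 than in WT10 at 31 members and shallower at 0, beside 7.09% and 7.28% of all genes. With length and GC trends removed, 54 members were lower in WT10 than in MUT3 and 39 lower in WT6 than in WT10, beside 10.9% and 8.58% of all genes. With the libraries of the clones matched by dose, an alternative chosen after seeing the data, 37 members were lower in WT10 than in MUT3, beside 4.4% of all genes. In the unmatched fit on the deposited values, the 21 calls between WT10 and MUT3 became 0 when the 25 ng/ml library of WT10 or of MUT3 was left out, and the 52 for the wild type average became 0 without that of MUT3. The 31 calls between WT6 and WT10 became 0 without WT6 at 25 ng/ml or WT10 at 0 ng/ml. Shares of all genes are not given for the fits with a library left out.

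Members reached a 1.5-fold drop at lower doses in WT6 than in WT10. Equal doses did not give equal RBM47 counts. At 1 and 2.5 ng/ml these were 3137 and 8094 in WT6, and 827 and 2822 in WT10. At 5 and 25 ng/ml they were 3966 and 10425 in WT6, and 8134 and 19877 in WT10. The part of the RBM47 level in the difference between the clones was not tested. In WT6 cells the number of members at least 1.5-fold below the untreated library was 0, 2, 28 and 54 at 1, 2.5, 5 and 25 ng/ml, beside 1.08%, 1.73%, 15% and 19.5% of all genes. For WT10 the numbers were 0, 0, 1 and 32, beside 0.799%, 1.16%, 1.39% and 7.05%. Nearly all of these WT10 changes were in its library at 25 ng/ml, and without that library the WT10 fit called 0 members, 8 having an unadjusted p under 0.05. The share of all genes is not given for that fit, so it does not show whether the loss of calls is particular to the members. In MUT3 cells 0 members were down 1.5-fold at any dose, beside 1.25%, 1.55%, 1.68% and 1.79% of all genes. The library at 25 ng/ml was below the 4 others of its clone for 56 members in WT6 (30.9% of all genes), 56 in WT10 (36.6%) and 4 in MUT3 (21.7%). The median log2 change at 25 ng/ml was -1.25 in WT6, -0.61 in WT10 and 0.10 in MUT3. Counts fell at every step of dose for 35 members in WT6 (8.76% of all genes), for 14 in WT10 (9.63%) and for 0 in MUT3 (0.989%). No test can be made of a single dose, since each rests on 1 library.

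**Figure D1:**
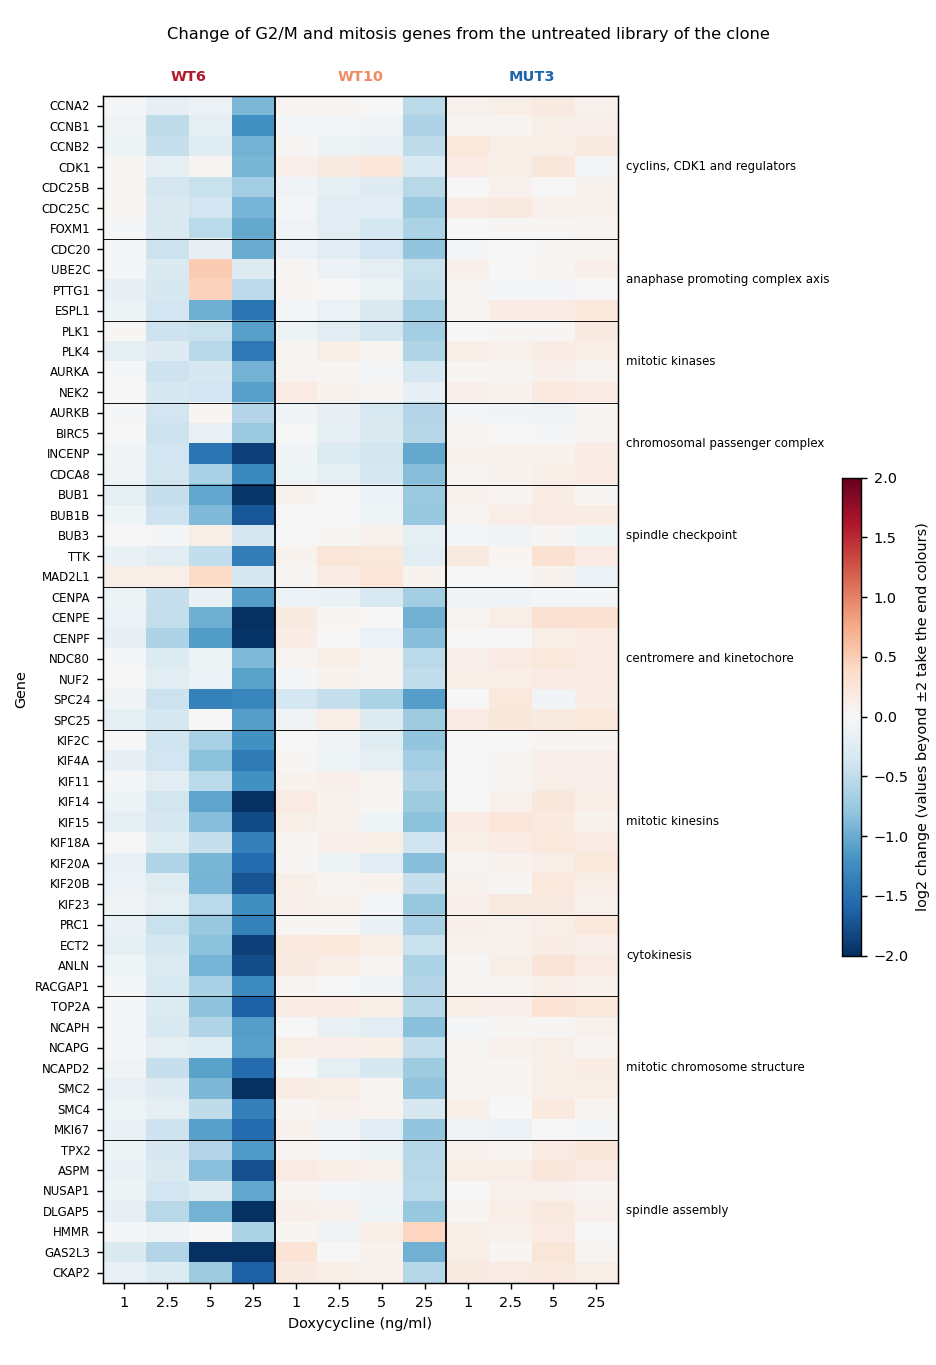
Log2 change of each gene from the untreated library of its clone, by role (rows) and by doxycycline dose in ng/ml (columns), with colours ending at 2 in either direction. The WT6 columns darken from 2.5 ng/ml on, the WT10 columns are darkest at 25 ng/ml, where the median change was -0.61, and the MUT3 columns stay pale.

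The WT6 dose course was not even. At 2.5 ng/ml 18 members, beside 49.7% of all genes, were lower than at 5 ng/ml, among them CCNA2, CCNB1, CCNB2, CDK1, CDC20, AURKA and AURKB. With trends removed there were 7 such members, beside 47.8% of all genes, and none of the genes just named was among them. They were BUB3, MAD2L1, BIRC5, NCAPH, NCAPG, UBE2C and PTTG1. The RBM47 count was also higher at 2.5 than at 5 ng/ml, and its part in this order was not tested.

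Among the cyclins, CDK1 and their regulators, 7 of 7 fell in WT6 and 6 of 7 in WT10. CCNB1 (cyclin B1, the partner of CDK1; chr5:68462962-68474072, plus strand, hg19) counted 10038, 9592, 7036, 8872 and 4352 in WT6 cells, listed here and hereafter from the untreated library up to the highest dose. In WT10 cells it counted 5833, 5696, 5732, 5534 and 3822. In MUT3 cells it counted 6819, 7107, 6982, 7397 and 7303. The library at 25 ng/ml was the lowest in both wild type clones, and MUT3 showed no such drop. The CCNB1 slope was -0.25 (SE 0.041, adjusted p = 0.00018) in WT6 and -0.13 (SE 0.04, adjusted p = 0.0343) in WT10. CDK1, the kinase that drives mitotic entry (chr10:62538089-62554610, plus strand), counted 5590.3, 5703, 4907, 5833 and 2958 in WT6 cells. In WT10 cells CDK1 counted 2942, 3170.1, 3336, 3472 and 2391. In MUT3 cells CDK1 counted 2772, 3095, 3023, 3234 and 2730.0. CDK1 fell in WT6, with a slope of -0.19 (SE 0.049, adjusted p = 0.00389), but in WT10 it was highest at 5 ng/ml and its slope was -0.06 (SE 0.048, adjusted p = 0.388). With length and GC trends removed the CDK1 slope in WT10 was -0.13 (adjusted p = 0.0015) and passed. CCNA2 (cyclin A2) counted 5747, 5625, 5133, 5319 and 3071 in WT6 cells. CCNA2 counted 4492, 4597, 4664, 4532 and 3092 in WT10 cells and 3473, 3704, 3753, 3945 and 3686 in MUT3 cells. Its levels up to 5 ng/ml lay close together in WT10, and the call (slope -0.12 (SE 0.037, adjusted p = 0.036)) came from the highest dose. CCNB2 (cyclin B2) counted 2013, 1871, 1464, 1700.3 and 1046 in WT6 cells and 1468, 1494, 1364, 1325 and 1029 in WT10 cells. Its MUT3 counts, 1468, 1695, 1588, 1599.7 and 1667, did not fall below the untreated library. FOXM1, the activator of many G2/M promoters, counted 5003, 4877, 4098, 3451 and 2465 in WT6 cells. FOXM1 counted 6043, 5742, 5206, 4760.4 and 3892 in WT10 cells and 5526, 5499, 5632, 5639 and 5725 in MUT3 cells. It fell at every step in both wild type clones, with slopes of -0.23 (SE 0.022, adjusted p = 3.71e-06) and -0.14 (SE 0.022, adjusted p = 0.00059). CDC25B, a phosphatase that activates CDK1, counted 4917, 4673, 4362, 4095 and 3346 in WT10 cells and 4749.7, 4829, 3782, 3496 and 2953 in WT6 cells. In MUT3 cells CDC25B counted 4647, 4664, 4941, 4611 and 4889. The WT10 counts fell at each step, and the slope there was -0.12 (SE 0.024, adjusted p = 0.00274).

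Of the mitotic kinases 4 of 4 fell in WT6 and 2 of 4 in WT10. PLK1, which acts at centrosomes, kinetochores and the midbody (chr16:23688977-23701688, plus strand), counted 5649, 5714, 4242, 4139 and 2671 in WT6 cells. PLK1 counted 4888, 4567, 4199.8, 3823 and 3065 in WT10 cells and 4602, 4615, 4665, 4692 and 5192 in MUT3 cells. Here the mutant clone was highest at 25 ng/ml, where both wild type clones were lowest, and the slope differed between WT10 and MUT3 by -0.18 (SE 0.035, adjusted p = 0.0113). AURKA, the centrosomal Aurora kinase, counted 6967, 6833, 5247, 5605 and 3619 in WT6 cells and 4929.9, 5147, 5077, 4854 and 3880.5 in WT10 cells. In MUT3 cells AURKA counted 4965, 5027, 5049, 5332 and 5146. Its WT10 slope of -0.08 (SE 0.028, adjusted p = 0.0563) did not pass the test. With length and GC trends removed that slope was -0.115 (adjusted p = 0.00099) and passed. PLK4, which starts centriole duplication, was at 0.369 of its untreated count at 25 ng/ml in WT6 cells and 0.658 in WT10 cells. NEK2, a centrosome kinase, was at 0.47 and 0.888.

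**Figure D2:**
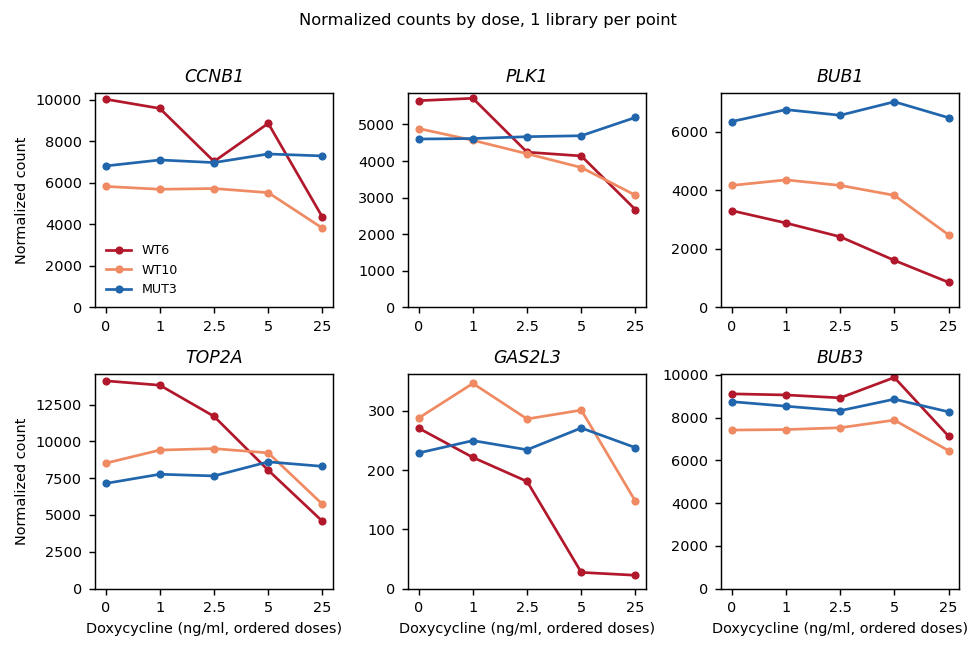
Normalized counts (vertical, from 0) of CCNB1, PLK1, BUB1, TOP2A, GAS2L3 and BUB3 at the 5 doxycycline doses (horizontal, ng/ml, evenly spaced), 1 library per point, for WT6, WT10 and MUT3 cells. The WT6 and WT10 lines are lowest at 25 ng/ml, and BUB3 keeps 0.783 of its untreated count in WT6 there.

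The spindle checkpoint group was split: BUB1, BUB1B and TTK fell in WT6, and BUB3 and MAD2L1 did not pass the test in either clone. BUB1, the kinase at kinetochores that recruits other checkpoint proteins (chr2:111395105-111435640, minus strand), counted 3303, 2880.2, 2412, 1606 and 857 in WT6 cells. BUB1 counted 4163, 4351, 4163, 3824 and 2477 in WT10 cells and 6342, 6748, 6555, 7016 and 6472 in MUT3 cells. WT6 fell at every step to 0.26 of untreated, WT10 was lowest at 25 ng/ml, and the WT6 slope was -0.43 (SE 0.037, adjusted p = 2.74e-06). BUB3, the partner of BUB1 and BUB1B, counted 9113, 9061, 8926, 9879 and 7133 in WT6 cells and 7419, 7442, 7527, 7884 and 6455 in WT10 cells. In MUT3 cells BUB3 counted 8748, 8535, 8326, 8863 and 8272. Its WT6 slope was -0.07 (SE 0.029, adjusted p = 0.0573). MAD2L1, the checkpoint protein that binds CDC20, counted 3090.5, 3335, 3382, 3970.2 and 2442 in WT6 cells and 2027, 2049, 2259, 2408 and 2137 in WT10 cells. In MUT3 cells MAD2L1 counted 2215, 2226, 2200.2, 2316 and 2039. Its highest count was at 5 ng/ml in all 3 clones. BUB3 and MAD2L1 were also the only members whose WT6 slope was above 0 with trends removed, at 0.04 and 0.01.

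All 4 chromosomal passenger genes fell in both wild type clones. INCENP, the scaffold of the complex (chr11:61891470-61920641, plus strand), counted 2333, 2246, 1793, 847 and 639 in WT6 cells. INCENP counted 2228, 2149.8, 1848, 1724 and 1096 in WT10 cells and 1596, 1675, 1678, 1679 and 1769 in MUT3 cells. It fell at every step in both wild type clones, to 0.274 and 0.492 of untreated, and its MUT3 counts did not drop below the untreated library. The slope differed between WT10 and MUT3 by -0.25 (SE 0.07, adjusted p = 0.0486). AURKB, the kinase of the complex, counted 2651, 2571, 2022, 2711 and 1760.1 in WT6 cells and 3116, 2974, 2795, 2532 and 2076 in WT10 cells. In MUT3 cells AURKB counted 2719, 2663, 2612, 2579 and 2803. On the deposited values its slopes were close in the 2 wild type clones, at -0.11 and -0.13. With length and GC trends removed they were -0.26 in WT6 and -0.14 in WT10. The difference of -0.12 between them was then called (adjusted p = 0.0274). BIRC5 (survivin) counted 4447, 4406, 3288, 4008 and 2663 in WT6 cells and 3621, 3593, 3191, 2956 and 2436 in WT10 cells. In MUT3 cells BIRC5 counted 3498, 3626, 3476, 3446 and 3649.8. CDCA8 (borealin) was at 0.41 of untreated in WT6 and 0.557 in WT10.

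All 7 centromere and kinetochore genes fell in WT6 and 5 of 7 in WT10. CENPE, the kinesin that carries chromosomes to the spindle equator (chr4:104026506-104119602, minus strand), counted 3120.1, 2880.2, 2246, 1582 and 720.0 in WT6 cells. CENPE counted 1777, 2009, 1820.1, 1796 and 909.8 in WT10 cells and 1416, 1474, 1549.8, 1744 and 1744 in MUT3 cells. The groups moved apart, since the MUT3 counts at 5 and 25 ng/ml lay above the untreated library while WT6 fell to 0.231 of untreated. CENPE had the highest MUT3 slope of all members, 0.07 (SE 0.048, adjusted p = 1), which did not pass the test. SPC24, a subunit of the NDC80 complex, counted 262, 249, 194, 102 and 106 in WT6 cells and 528, 413, 379, 339 and 247 in WT10 cells. In MUT3 cells SPC24 counted 449, 451, 518, 432 and 498. It had the lowest WT10 slope of the members, -0.23 (SE 0.047, adjusted p = 0.00445), and was the 1 member down 1.5-fold in WT10 at 5 ng/ml. CENPF was at 0.257 of untreated in WT6 and 0.551 in WT10, and CENPA, the histone H3 variant of centromeres, at 0.465 and 0.621.

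All 9 mitotic kinesins fell in WT6 and 7 in WT10, and all 9 differed from MUT3 in the mean wild type slope. KIF14, which works with PRC1 and citron kinase in cytokinesis (chr1:200520625-200589879, minus strand), counted 1490.5, 1393, 1154, 719 and 318 in WT6 cells. KIF14 counted 1321, 1478, 1381, 1349 and 804 in WT10 cells and 1142, 1144, 1214, 1333 and 1256 in MUT3 cells. WT6 reached 0.213 of untreated and WT10 0.609, and the WT6 slope was lower by -0.33 (SE 0.071, adjusted p = 0.0165). KIF11, which pushes the spindle poles apart, was at 0.43 in WT6 and 0.656 in WT10. KIF20A and KIF23, kinesins of the central spindle, were at 0.345 and 0.427 in WT6. KIF4A has a near-identical copy, KIF4B, and its counts are uncertain to that extent. The 4 cytokinesis genes fell in WT6, 3 of them in WT10, and all 4 were steeper in WT6 than in WT10. Of these PRC1, which bundles microtubules of the central spindle, was at 0.394 of untreated in WT6 and 0.636 in WT10, and ECT2, the exchange factor for RhoA, at 0.274 and 0.738.

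All 7 genes of mitotic chromosome structure fell in WT6 and 5 in WT10. TOP2A, the topoisomerase that untangles sister DNA (chr17:38544777-38574148, minus strand), counted 14112, 13816, 11699, 8038 and 4569 in WT6 cells. TOP2A counted 8515, 9409, 9508, 9218 and 5730.1 in WT10 cells and 7141, 7766, 7651, 8609 and 8303 in MUT3 cells. WT10 was above its untreated library up to 5 ng/ml and below it at 25 ng/ml, whereas WT6 fell at each step. MKI67, the proliferation antigen that coats mitotic chromosomes (chr10:129894923-129924687, minus strand), counted 13326, 12128, 10002, 6299.9 and 4592 in WT6 cells. MKI67 counted 11424, 12186, 10876, 9783 and 6577 in WT10 cells and 10513, 10089, 9743, 10554 and 10311 in MUT3 cells. Its slope was -0.36 (SE 0.036, adjusted p = 5.97e-06) in WT6 and -0.19 (SE 0.036, adjusted p = 0.00272) in WT10. The condensin subunits SMC2 and NCAPD2 were at 0.242 and 0.344 of untreated in WT6 and at 0.576 and 0.612 in WT10.

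All 7 spindle assembly genes fell in WT6 and 5 in WT10, and they held the lowest WT6 and the highest WT10 slope of the members. GAS2L3, which links actin and microtubules in late mitosis (chr12:100967461-101022066, plus strand), counted 271, 221, 181, 27.2 and 22.4 in WT6 cells. GAS2L3 counted 288, 346, 286, 301 and 147 in WT10 cells and 229, 249.7, 234, 271 and 238 in MUT3 cells. WT6 dropped between 2.5 and 5 ng/ml to a level with as few as 18 reads, and its slope of -0.87 (SE 0.15, adjusted p = 0.00027) was the lowest of all 12644 genes. In WT10 the slope was -0.20 (SE 0.094, adjusted p = 0.143), which did not pass the test. With length and GC trends removed the WT10 slope was -0.22 (adjusted p = 0.0422) and passed. HMMR, a spindle-associated protein that also binds hyaluronan, outside the rule for named genes and chosen after its values were seen, counted 653, 634, 624, 654 and 422 in WT6 cells. HMMR counted 141, 145, 134, 155 and 189.6 in WT10 cells. It fell in WT6 (slope -0.13 (SE 0.034, adjusted p = 0.00565)) and was highest at 25 ng/ml in WT10 (slope 0.10 (SE 0.046, adjusted p = 0.145)). TPX2, the activator of AURKA, was at 0.455 of untreated in WT6 and 0.671 in WT10.

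On the anaphase promoting complex axis CDC20 and ESPL1 (separase) fell in both wild type clones, and UBE2C and PTTG1 passed the test in neither on the deposited values. These were named after their values were seen. CDC20, the activator of the complex, counted 19027, 18567, 14130.5, 16943 and 9546 in WT6 cells and 10542, 9728, 9068, 8116 and 6119.6 in WT10 cells. UBE2C, its ubiquitin-conjugating enzyme, counted 6375, 6266, 5220.3, 9025 and 5323 in WT6 cells and 4586, 4636, 4242, 4021 and 3375 in WT10 cells. PTTG1 (securin) counted 3129, 2795, 2504, 4329.8 and 2175 in WT6 cells and 3552, 3648, 3532, 3303 and 2529 in WT10 cells. Both UBE2C and PTTG1 were highest in the WT6 library at 5 ng/ml. They are the shortest members, and PTTG1 has near-identical copies (PTTG2 and PTTG3P) that could share its reads. With length and GC trends removed both were called in both wild type clones. The UBE2C slope was then -0.19 (adjusted p = 2.2e-05) in WT6 and -0.13 (adjusted p = 0.0014) in WT10. That of PTTG1 was -0.23 (adjusted p = 6.7e-06) and -0.16 (adjusted p = 0.00051).

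Transcript length moved with the WT6 slope over the members. Spearman's rho of length and slope was -0.64 over the 58 genes, which share the same libraries, and 0.03 with trends removed. The 19 shortest members (715 to 2574 bases) had a median WT6 slope of -0.21 and the 19 longest (4587 to 12716 bases) -0.38. For all genes in these length ranges the medians were 0.10 and -0.10. With trends removed the members' medians were -0.30 and -0.28, and 56 of the 58 fell in WT6, beside 31.5% of all genes. Removing the trends takes out the relation with length over all genes by construction. The absence of a steeper fall of the long members afterwards is therefore not a separate finding. The fall of the members itself was still seen with trends removed.

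Further genes of the same phase, not among the 58, were read from a separate list of 67. It was chosen, as were the members and the lists that follow, with earlier results of these data known. Of the 67 genes 48 fell and 3 rose in WT6, and 27 fell and 0 rose in WT10. The shares of all genes that fell and rose were 28.3% and 29.2% in WT6 and 9.83% and 10.2% in WT10, for these and the lists that follow. KIF18B, a kinesin that shortens microtubules, had slopes of -0.56 in WT6 and -0.27 in WT10. Of 49 G1/S and DNA replication genes 35 fell and 1 rose in WT6, and 21 fell and 1 rose in WT10. The median log2 change at 25 ng/ml was -1.25 for the members, -0.89 for the further G2/M genes and -0.58 for the G1/S genes in WT6, and -0.61, -0.46 and -0.28 in WT10. Of 11 DREAM and MuvB genes 5 fell and 1 rose in WT6, and 3 fell and 1 rose in WT10. Of 13 core subunits of the anaphase promoting complex 4 fell and 4 rose in WT6, shares near those of all genes, and 2 fell and 1 rose in WT10. All 4 lists had 0 calls in MUT3.

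**Figure D3:**
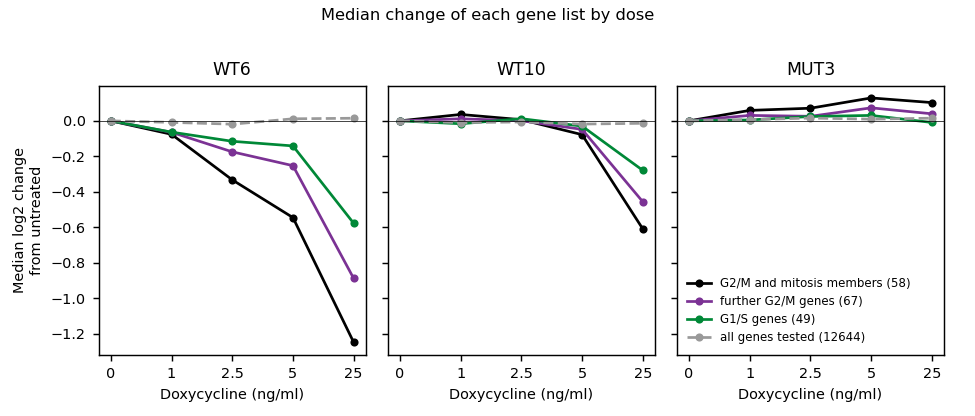
Median log2 change from the untreated library (vertical) by doxycycline dose (horizontal, ng/ml) for the members, the further G2/M genes, the G1/S genes and all genes tested, in each clone. The members reach -1.25 in WT6 and -0.61 in WT10 at 25 ng/ml, the lowest of the 4 lines, and 0.10 in MUT3.

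Levels without induction also differed between clones. At dose 0 the fitted level was higher in WT10 than in MUT3 at 17 members and lower at 3, beside 14.3% and 13.9% of all genes. It was higher in WT6 than in WT10 at 31 members and lower at 7, beside 30.8% and 28.8%. Per kilobase of transcript, CDC20, UBE2C and PTTG1 had the highest mean levels of the members and GAS2L3 the lowest, at 7062, 6465, 5247 and 38.5 normalized counts per kilobase.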

How the data were processed

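RNA-seq (polyA-selected, paired-end) covered 15 libraries, grouped by the clone and dose in their labels. The authors aligned reads (STAR, hg19), obtained gene counts with HTSeq 0.5.4 and deposited a normalized signal, reads divided by a DESeq size factor. Strand was not given in the sources used here, and 27 members overlap a gene on the opposite strand. No-feature pairs made up 56.5% to 59.6% of counted pairs. Whole reads were recovered for 100% of values (tolerance 0.001).

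limma 3.58.1 (R 4.3.3) was fitted to log2(normalized count + 1) with vooma weights, 6 coefficients and 9 residual degrees of freedom, over genes with a mean of at least 10 in each clone. Only the spread of single libraries about each dose line enters the p-values, and counting intervals would not cover variation between cultures. Trends on length and GC content were removed per library with splines of 4 degrees of freedom. Alternatives included edgeR 4.0.16 and DESeq2 1.42.0 on recovered reads. The scripts were tested on simulated data. Annotation was GENCODE release 44 on hg19. Members and lists were chosen with earlier results of these data known. Every library is given for 9 fixed members and for those with the lowest and highest wild type, WT10 or MUT3 slopes.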

Additional observations from a re-analysis of the deposited data

Results flagged for a closer look

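The slope differed between the wild type clones, by the contrast of WT6 minus WT10 in the same limma fit, for 8 of the 20 named members. Over all genes 7.09% were lower and 7.28% higher in this contrast. The difference, in log2 per unit of log2(dose + 1), was -0.13 for AURKA (adjusted p = 0.0479), -0.26 for BUB1 (adjusted p = 0.0126), -0.24 for TOP2A (adjusted p = 0.0244) and -0.17 for MKI67 (adjusted p = 0.0409). It was -0.66 for GAS2L3 (adjusted p = 0.0285), -0.26 for CENPE (adjusted p = 0.0308), -0.23 for INCENP (adjusted p = 0.0465) and -0.33 for KIF14 (adjusted p = 0.0165). GAS2L3, CENPE, INCENP and KIF14 had been named for a low mean of the WT6 and WT10 slopes, from the same values, so their calls are not independent of that choice. All 8 fell more steeply in WT6. With length and GC trends removed the difference stayed below 0 in all 8. It was then not called for MKI67 (-0.08, adjusted p = 0.0611) or CENPE (-0.12, adjusted p = 0.0654). Clone, parental line and RBM47 level differ together here and cannot be told apart, and without the WT6 libraries at 5 and 25 ng/ml 0 members differed.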

How the results depend on the processing

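The doses carry each comparison, with 1 library per condition, so leaving out a library can end a call. The counts in this section are of members only. Shares of all genes are not given beside them, so they do not show whether a change is particular to the members. Leaving out each library in turn gave 41 to 58 called members in WT6 (41, of which 40 fell and 1 rose, without WT6 at 25 ng/ml), 0 to 50 in WT10 (0 without 25 ng/ml) and 0 in MUT3. The range was 0 to 42 for WT10 minus MUT3 (0 without WT10 or MUT3 at 25 ng/ml), 0 to 55 for the mean wild type slope minus MUT3 (0 without MUT3 at 25 ng/ml), and 0 to 42 for WT6 minus WT10 (0 without WT6 at 25 or WT10 at 0 ng/ml). For the level at dose 0 it was 7 to 24 for WT10 minus MUT3 and 19 to 42 for WT6 minus WT10. With log2 RBM47 in place of dose, limma called 0 members in every slope comparison, with 49 in WT6 and 12 in WT10 at an unadjusted p under 0.05. Without 25 ng/ml, 0 members were called in WT10, WT10 minus MUT3, mean wild type minus MUT3 (41 unadjusted) and WT6 minus WT10 (36 unadjusted), and 12 for the level of WT10 minus MUT3. Without WT6 at 5 and 25 ng/ml the counts were 5 in WT6, 49 for WT10 minus MUT3, 0 for WT6 minus WT10 and 31 for the WT10 minus MUT3 level. Dose as rank gave 21 in WT10, 4 for WT10 minus MUT3 and 9 for its level. Trends removed gave 54 and 33 for these last comparisons, no weights 13 for the first, and each clone alone 2 in MUT3. At a fold of 2 the members down were 0, 8 and 43 in WT6 at 2.5, 5 and 25 ng/ml and 0 and 2 in WT10 at 5 and 25 ng/ml. At a fold of 1.5 with trends removed they were 5 in WT6 at 2.5 and 0 in WT10 at 5 ng/ml. Matching the clones by dose (a block of dose, chosen after seeing the data) gave 37 for WT10 minus MUT3, and its other 4 counts were within 1.5 times of those reported. The causes were not tested.

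Without 25 ng/ml the WT10 slope changed sign for CDK1 (0.0928), TOP2A (0.0449), BUB3 (0.0316), KIF14 (0.00271) and CCNA2 (0.00797). Leaving out single libraries gave -0.122 to 0.0928 for CDK1, -0.209 to 0.0448 for TOP2A, -0.0601 to 0.0316 for BUB3, -0.241 to 0.00271 for KIF14 and -0.167 to 0.00797 for CCNA2. In WT6 BUB3 was 0.0369 with trends removed, 0.0361 without 25 ng/ml and -0.0967 to 0.0361 without single libraries, and MAD2L1 was 0.0137, 0.127 and -0.129 to 0.127, and 0.0733 without WT6 at 5 and 25 ng/ml. The mean wild type difference of BUB3 was 0.0162 with trends removed, 0.0330 without 25 ng/ml and -0.0559 to 0.0105 without single libraries, and that of MAD2L1 was -0.0416 to 0.0979 without single libraries. No paired analysis was possible because the labels give no replicate numbers and each clone and dose has 1 library, so the clones could be matched by dose only.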
